A study of Mus musculus with 8 samples.

Results

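The lipoxygenases and the enzymes that make and inactivate prostaglandin E were followed in sorted esophageal epithelial cells of the mouse. The 10 genes were taken by name from the 55276 gene symbols of the deposited count table: the lipoxygenases Alox12, Alox12b, Alox12e, Alox15 and Aloxe3, the cyclooxygenases Ptgs1 and Ptgs2, the prostaglandin E synthases Ptges and Ptges2, and the prostaglandin dehydrogenase Hpgd. All 10 were present and all 10 passed the filter on low counts. Epithelium was peeled from the esophagus of C57BL6 mice aged 14 to 15 weeks, with no genetic change or drug named in the labels. Cells that carried integrin beta-1 and shut out DAPI were sorted on Cyto-ID, a fluorescent dye for autophagic vesicles. The fraction with weak dye is called Low and the fraction with strong dye High. Each fraction was sequenced in bulk from the same 4 animals (Female1, Female2, Male1 and Male2), which gave 8 libraries, 4 per fraction.

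Lipoxygenases insert oxygen into polyunsaturated fatty acids. In stratified epithelia one branch of them acts on linoleate bound in ceramides, a step in building the lipid envelope around the outermost cells. Cyclooxygenases convert arachidonic acid to an unstable prostaglandin, from which terminal synthases make prostaglandin E and other prostanoids that signal through receptors on nearby cells. The dehydrogenase encoded by Hpgd takes the first step of their inactivation.

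Library totals ran from 26285150 to 28599954 counts in Low and from 27486049 to 29301054 in High. The trimmed-mean scaling factors were 1.16 to 1.30 in Low and 0.679 (Male2) to 0.944 (Female1) in High. Levels are given as CPM, the counts scaled to a common library total with these factors. All 8 genes of a basal keratinocyte list were lower in High past the threshold, and all 8 of a suprabasal list were higher. The basal genes summed to 20930 to 24800 CPM in Low and 2722 to 4461 in High, and the suprabasal genes to 8575 to 25630 CPM in Low and 143900 to 241500 in High. The labels describe both fractions as basal cells, and basal transcripts were present in both. In bulk RNA, a smaller number of cells of one type and less RNA per cell cannot be told apart. Keratinocyte layer moved with most of the results that follow, and its part in them was not tested.

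All 5 lipoxygenase genes lie on chromosome 11 in the annotation of GENCODE mouse release M21 (GRCm38). Aloxe3 (chr11:69125896-69149115) and Alox12b (chr11:69156989-69169792) follow each other on the plus strand, 7.87 kb apart. Alox8, a lipoxygenase outside the 10, is on the minus strand with its 3′ end 14.1 kb beyond Alox12b. Alox12 (chr11:70241457-70255353), Alox12e (chr11:70315610-70322628) and Alox15 (chr11:70344152-70352031) lie in a row on the minus strand, with gaps of 60.3 and 21.5 kb. The prostaglandin genes are scattered: Ptgs2 at chr1:150100031-150108227, Ptges at chr2:30889471-30929863, Ptges2 at chr2:32395896-32405772, Ptgs1 at chr2:36230426-36252272 and Hpgd at chr8:56294585-56321043. Each of the 10 is a protein-coding gene. Exons of another gene overlap those of 1 member only: Gm43621, on the opposite strand, covers 148 bases (3.81%) of the Ptgs1 exons.

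Promoters are shown for the lipoxygenase genes with RefSeq windows that rose together (Alox12b and Alox12) and for the cyclooxygenases, which moved in opposite directions. They hold bases upstream of the RefSeq start on GRCm38.p6, 5′ to 3′ on the strand of the gene, with any match to the motifs searched in capitals. The stretches are chr11:69156822-69156988 (plus strand) for Alox12b, shortened to end before the GENCODE start, chr11:70255371-70255620 (minus strand) for Alox12, chr2:36230176-36230425 (plus strand) for Ptgs1 and chr1:150099781-150100030 (plus strand) for Ptgs2.
Alox12b: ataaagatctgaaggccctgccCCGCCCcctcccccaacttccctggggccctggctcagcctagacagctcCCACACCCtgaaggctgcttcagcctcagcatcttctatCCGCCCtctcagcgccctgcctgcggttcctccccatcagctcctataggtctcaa
Alox12: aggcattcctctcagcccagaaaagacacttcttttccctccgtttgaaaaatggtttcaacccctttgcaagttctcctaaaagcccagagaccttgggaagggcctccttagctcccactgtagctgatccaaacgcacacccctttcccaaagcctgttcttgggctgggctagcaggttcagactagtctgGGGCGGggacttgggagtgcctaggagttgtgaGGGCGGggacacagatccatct
Ptgs1: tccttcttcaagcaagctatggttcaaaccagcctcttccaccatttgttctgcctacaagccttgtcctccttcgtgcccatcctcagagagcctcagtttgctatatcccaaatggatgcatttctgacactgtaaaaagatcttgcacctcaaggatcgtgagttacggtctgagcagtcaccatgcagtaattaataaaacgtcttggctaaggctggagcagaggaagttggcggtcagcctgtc
Ptgs2: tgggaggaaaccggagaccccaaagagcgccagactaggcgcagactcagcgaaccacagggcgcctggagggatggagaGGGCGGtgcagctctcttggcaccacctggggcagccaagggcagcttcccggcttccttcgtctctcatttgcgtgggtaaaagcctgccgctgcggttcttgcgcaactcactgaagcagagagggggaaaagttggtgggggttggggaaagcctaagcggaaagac

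Both strands of the 250 bases before the start were searched for a TATA box (TATAAA), an AP-1 site (TGANTCA), the core of a cyclic AMP response element (TGACG), a GC box (GGGCGG), a Klf4-type CACCC box (CCACACCC) and a Grainyhead site (AACCGGTT). Alox12b held 3 GC boxes (1 of them in the bases left unprinted) and 1 CACCC box, at −178 to −171 from the start. Alox12 held 2 GC boxes, Ptgs2 held 1, and the Ptgs1 window had no match to any of the 6. Of 32851 promoter windows in the same table, 32.7% held a GC box and 3.2% the CACCC box. TATAAA was in 12.4% of the windows, TGANTCA in 6.75%, TGACG in 17.8% and AACCGGTT in 0.116%. These are matches of letters and not measured binding sites.

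High was compared with Low to ask how the pathway differs between cells with many and few autophagic vesicles. Of the 10 genes, 4 were higher in High (Alox12b, Aloxe3, Alox12 and Ptgs1) and 3 were lower (Ptgs2, Ptges and Hpgd), by edgeR's quasi-likelihood test with a Benjamini-Hochberg adjusted p under 0.05 over 17344 genes. Alox12e, Alox15 and Ptges2 did not pass. The fractions differed widely, with 48.7% of all genes tested past the threshold, 23.4% higher and 25.3% lower, so 7 of 10 is not far from the background. The CPM of the 4 High and the 4 Low libraries did not overlap for the same 7 members, as was the case for 48.6% of the genes tested. The median log2 fold change was 0.05 over the members and −0.09 over all genes tested.

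**Figure D1:**
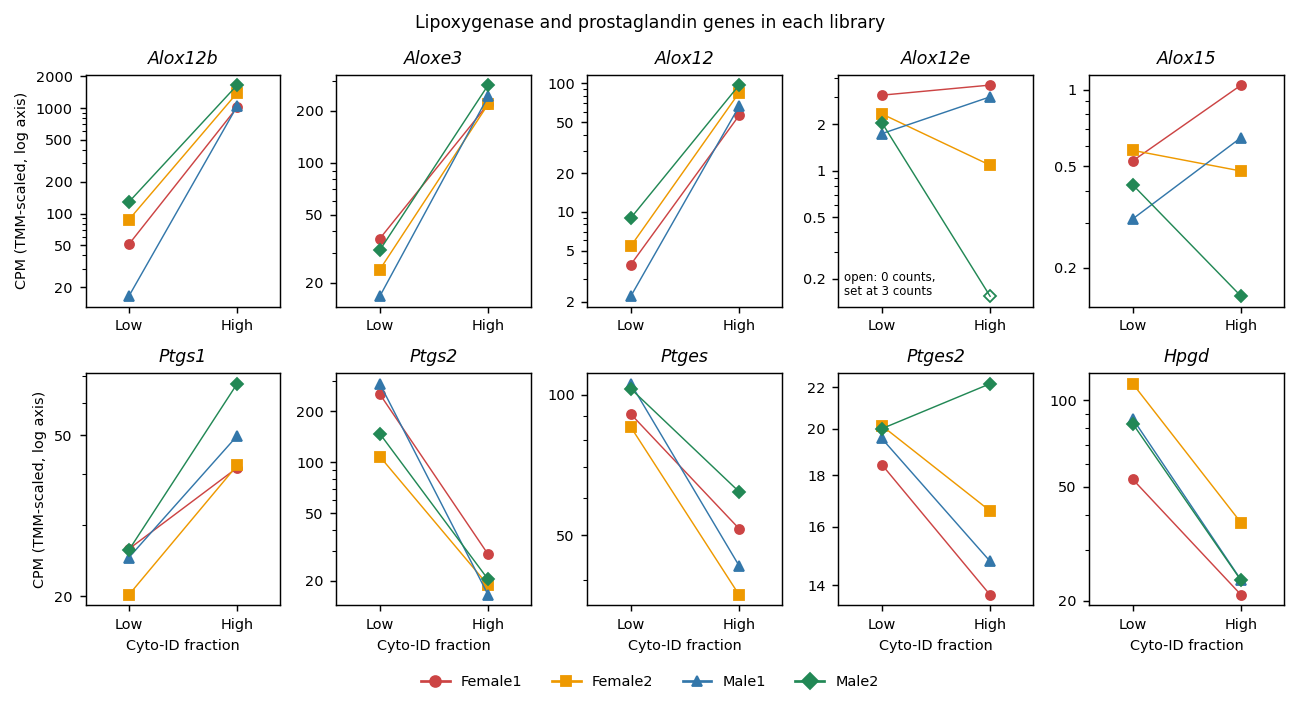
CPM of the 10 genes (y, log axis, each panel on its own scale) in the Low and High library of each animal, joined by a line; the open symbol marks 0 counts drawn at the level of 3 counts. Alox12b, Aloxe3, Alox12 and Ptgs1 rose in all 4 animals, Ptgs2, Ptges and Hpgd fell in all 4, and the lines of Alox12e and Alox15 cross.

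Alox12b had the largest fold change of the 10 genes. Alox12b encodes the epidermal R-type lipoxygenase that oxidises linoleate in acylceramides. Its Low levels were 51.0 CPM (Female1), 87.2 (Female2), 16.4 (Male1) and 129 (Male2), against 1016, 1393, 1043 and 1652 CPM in High. Every High library was above every Low library. Relative to their level, the Low libraries differed far more among themselves than the High ones. The log2 fold change was 4.17 (SE 0.57 and adjusted p 0.000232), or 18.0-fold, from 70.8 ± 48.1 to 1276 ± 304 CPM (SD, n = 4 each). Without the Low library of Male2 it was 4.91 (adjusted p 0.000276), and with total counts as the scale 3.58.

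Aloxe3 encodes the isomerase that turns the hydroperoxide made by the Alox12b enzyme into an epoxyalcohol. Low held 36.2, 23.9, 16.7 and 31.0 CPM, with the animals in the same order, and High 220 (219.5), 219 (218.8), 243 and 283 CPM. The fractions did not overlap, and the 4 High libraries lay close together. It rose by 3.16 on the log2 scale (SE 0.25 and adjusted p 1.71e-05), from 27.0 ± 8.5 to 241 ± 30 CPM (SD, n = 4 each).

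Alox12, the platelet-type lipoxygenase that makes a hydroxy acid from arachidonate, was scarcer. Its Low libraries held 126, 197, 71 and 297 counts (Female1, Female2, Male1, Male2), or 3.89, 5.42, 2.21 and 8.97 CPM, and its High libraries 1460, 1945, 1739 and 1887 counts, or 56.3, 84.7, 66.3 and 97.1 CPM. It rose by 3.89 (SE 0.39 and adjusted p 4.2e-05), 14.9-fold, without overlap, and by 3.30 with total counts as the scale. The platelet genes Pf4 and Ppbp did not pass the test. Pf4 had 17 to 31 counts in Low and 31, 6, 18 and 0 in High, and the High library of Male2, with 0 counts of Pf4 and 1 of Ppbp, had the highest CPM of Alox12. Of the 5 platelet and megakaryocyte genes, 3 were tested and only Itga2b passed, higher in High. The list summed to 9.96 to 13.8 CPM in Low and 24.4 to 34.6 in High, most of it Itga2b. Gp9 had 1, 0, 0 and 1 counts in Low (Female1, Female2, Male1, Male2) and 0 in every High library. Gp1bb, too scarce to be tested, had 0, 3, 0 and 0 counts in Low and 7, 12, 9 and 19 in High (Female1, Female2, Male1, Male2). The part of such cells in the change of Alox12 was not tested.

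Within Low the animals followed the suprabasal list. The summed suprabasal level of the Low libraries was 8575 CPM in Male1, 12660 in Female1, 19640 in Female2 and 25630 in Male2. Alox12b and Alox12 were likewise lowest in Male1 and highest in Male2, with Female1 below Female2. For Aloxe3 only the lowest place was shared, since its highest Low library was that of Female1. These orders rest on 4 libraries and were not tested.

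Per length of exon, Alox12b exceeded the other lipoxygenases in both fractions. It reached 29.1 ± 19.8 CPM per kilobase in Low and 525 ± 125 in High (SD, n = 4 each), where Aloxe3 had 4.22 ± 1.33 and 37.7 ± 4.7 and Alox12 had 1.25 ± 0.70 and 18.6 ± 4.5. The per-length ratio of Alox12b to Aloxe3 was 2.58 to 10.9 in the Low libraries and 11.3 to 16.8 in the High libraries, and it was higher in High in all 4 animals. The mean change of that ratio was 1.29 ± 0.76 on the log2 scale (SD, n = 4). An exact two-sided sign-flip permutation test over the 4 animals gave p = 0.125, the smallest that 4 animals allow, for each of 5 such ratios computed (adjusted p 0.125). Such a ratio within a library does not depend on how libraries are scaled.

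**Figure D2:**
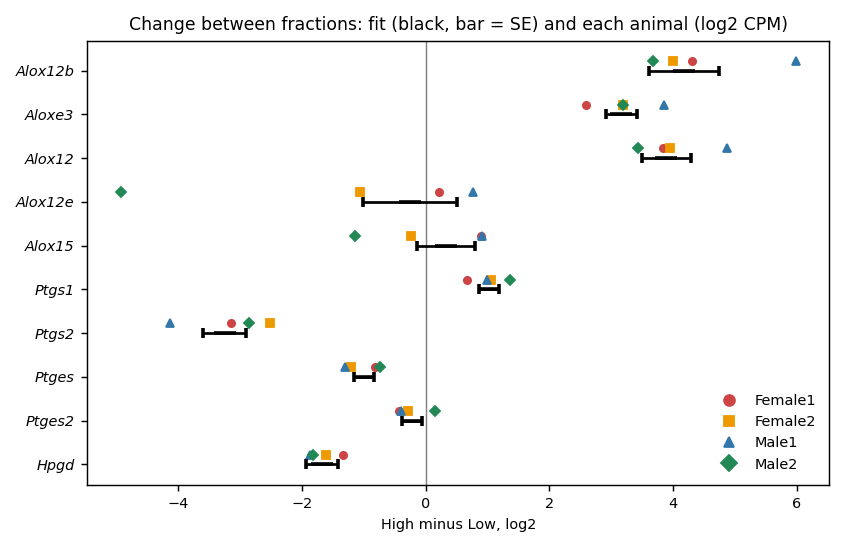
Change from Low to High on the log2 scale (x) for each gene (y): the black mark is the fitted log2 fold change with its SE, the coloured symbols the High minus Low difference in log2 CPM of each animal. The 3 lipoxygenases at the top lie at 2.60 or more in every animal, and Alox12e runs from −4.92 in Male2 to 0.77 in Male1.

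Alox12e and Alox15 had the fewest counts of the 10 genes and did not differ between the fractions past the threshold. Alox12e, an epidermal-type lipoxygenase of the mouse, had 100, 85, 56 and 68 counts in the Low libraries of Female1, Female2, Male1 and Male2, and 93, 25, 79 and 0 in the High ones. The count of 0 in High Male2 allows up to 3 counts, or 0.154 CPM. The log2 fold change was −0.25 (SE 0.76 and adjusted p 0.822), and without the High library of Male2 it was 0.15 (adjusted p 0.791). Alox15, the leukocyte-type lipoxygenase, had 10 to 21 counts in Low and 27, 11, 17 and 3 in High (0.33, SE 0.47 and adjusted p 0.607).

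Several marker lists of other cells had their High libraries in the same order as Alox12e and Alox15. The sums of the platelet, tuft cell and gastric lists did not, although Pf4 and Ppbp of the platelet list and Dclk1 of the tuft cell list, named after their values were seen, did. Other genes of those lists, Itga2b, Gp1bb and Pou2f3, were instead highest in the High library of Male2, at 33.5, 0.978 and 11.6 CPM. The 9 leukocyte genes summed to 86.5 to 128 CPM in Low, and in High to 113 CPM in Female1, 81.1 in Male1, 41.4 in Female2 and 15.2 in Male2. The 6 fibroblast genes summed to 308 to 480 CPM in Low, and to 456, 323, 147 and 36.6 in High for those animals. The 5 endothelial genes summed to 9.75 to 20.3 CPM in Low, and to 24.2, 14.6, 8.05 and 0.978 in High. The 6 muscle genes summed to 31.4 to 52.8 CPM in Low, and to 46.7, 31.1, 14.6 and 4.58 in High. Eosinophil and mast cell genes followed too (8 genes, 4.66 to 7.88 CPM in Low and 13.0, 8.16, 3.96 and 1.03 in High), while the eosinophil genes Epx and Prg2 had no more than 2 counts in any library. The scaling factors of the High libraries also fell in the order Female1, Male1, Female2 and Male2 (0.944, 0.896, 0.792 and 0.679). The suprabasal sums rose in that order (143900, 144000, 186500 and 241500 CPM). These orders rest on 4 libraries. The part of other cells, of scaling or of keratinocyte layer in the reads of Alox12e and Alox15 was not tested.

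**Figure D3:**
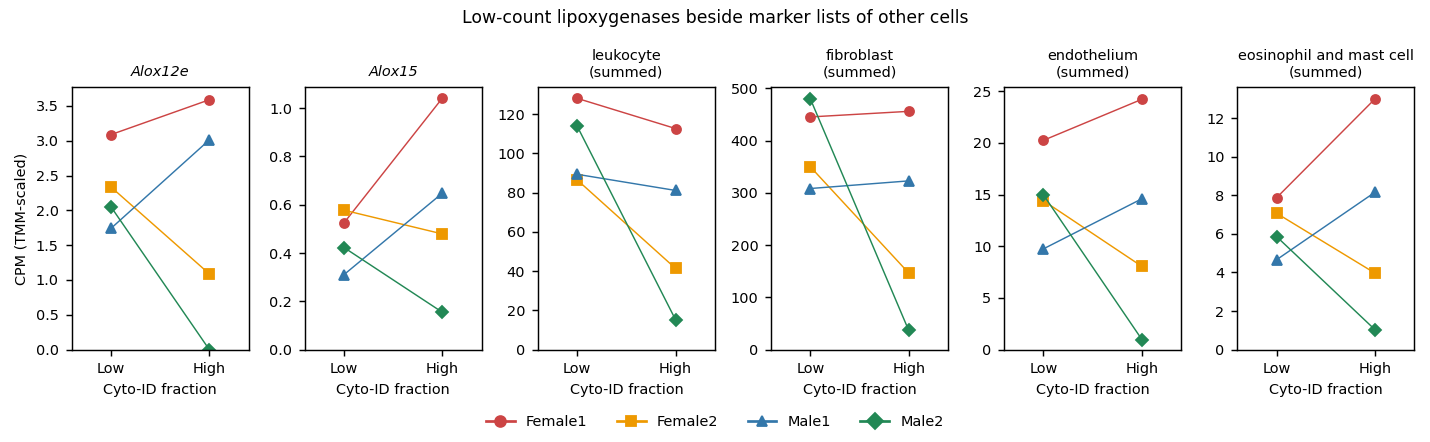
CPM (y, linear axis from 0) of Alox12e and Alox15 and the summed CPM of 4 marker lists in the Low and High library of each animal (x, fraction). In each panel the High libraries run from Female1 at the top through Male1 and Female2 to Male2 at the bottom.

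The cyclooxygenases moved in opposite directions. Ptgs2 encodes the inducible cyclooxygenase. In Low it was at 252 CPM (Female1), 108 (Female2), 291 (Male1) and 148 (Male2), and in High at 28.6, 18.8, 16.5 and 20.4 CPM. The Low libraries fell into a higher pair (the animals numbered 1) and a lower pair (those numbered 2), and both pairs lay far above High. The log2 fold change was −3.25 (SE 0.34 and adjusted p 5.63e-05), or 9.50-fold lower in High. It was −3.54 in the animals numbered 1 alone and −2.70 in those numbered 2. What the number stands for is not given in the labels.

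Ptgs2 is itself an early response gene. The 13 immediate early genes of a fixed list, among them Fos, Egr1 and Jun, summed to 16030 to 20270 CPM in Low and 10830 to 24720 in High. Of the 13, 3 were higher and 2 lower in High past the threshold, with a median log2 fold change of 0.14. The summed list overlapped between the fractions, while 5 of its genes taken singly did not. The lower genes were Jun, the most abundant of the list, by a log2 change of −0.84 (adjusted p 0.0132), and Atf3, by −0.96 (adjusted p 0.0040). The 3 higher genes were Btg2, by 1.41 (adjusted p 0.00251), Egr2, by 1.19 (adjusted p 0.00266), and Ier2, by 0.62 (adjusted p 0.0288). Apart from Jun, these are named after their values were seen. The part of an early response in the change of Ptgs2 was not tested.

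Ptgs1, the cyclooxygenase that most cells express steadily, was at 26.2, 20.2, 24.9 and 26.0 CPM in the Low libraries of Female1, Female2, Male1 and Male2, and at 41.5, 42.1, 49.8 and 67.0 in High. It rose by 1.03 on the log2 scale (SE 0.15 and adjusted p 0.000438), 2.04-fold (2.035), with no overlap. Scaled by total counts only, the rise was 0.45 (adjusted p 0.0103). Tuft cell genes, known for high Ptgs1 in other epithelia, summed over 6 genes to 6.05 to 8.61 CPM in Low and 12.6 to 16.5 in High. Of the 6, Pou2f3 was the most abundant, at a mean of 4.89 CPM in Low and 9.11 in High. Only 3 of them were tested. Of these 2 passed, both higher (Pou2f3 and Avil), and Dclk1 did not (0.34, SE 0.63 and adjusted p 0.704). The tuft cell genes Trpm5, Gnat3 and Il25 had at most 4 counts in any library. The part of such cells in the change of Ptgs1 was not tested.

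The balance between both cyclooxygenase transcripts turned over. Per kilobase of exon, Ptgs2 was 4.56 to 9.90 times as abundant as Ptgs1 in the 4 Low libraries and 0.258 to 0.585 times as abundant in the 4 High libraries. The mean change of the ratio was −4.19 ± 0.69 on the log2 scale (SD, n = 4), in the same direction in 4 of 4 animals (exact permutation test over animals, p = 0.125, the smallest possible).

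The terminal synthases of prostaglandin E followed Ptgs2 only in part. Ptges, the synthase usually induced together with Ptgs2, was at 91.0, 85.3, 106 and 103 CPM in Low (Female1, Female2, Male1, Male2) and 51.6, 37.2, 42.9 and 61.9 in High. It fell by 0.99 on the log2 scale (SE 0.16 and adjusted p 0.000698), with the fractions apart. Scaled by total counts only, its log2 fold change was −1.56 (adjusted p 6.04e-05). Ptges2, a membrane-associated synthase, was at 18.4 to 20.2 CPM in Low and 13.7 to 22.2 in High, lower in 3 of 4 animals (−0.23, SE 0.16 and adjusted p 0.29). It passed only where libraries were scaled by total counts (−0.81, adjusted p 0.000478).

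Hpgd, the dehydrogenase of the inactivation step, fell, as Ptgs2 and Ptges did. In Low it was at 53.1, 114, 86.3 and 82.9 CPM (Female1, Female2, Male1, Male2), and in High at 20.99, 37.4, 23.6 and 23.6. The lowest Low library was above the highest High library, and Female2 was the highest of the animals in both fractions. The log2 fold change was −1.68 (SE 0.26 and adjusted p 0.00052), or 3.20-fold lower. Female2 also held gastric epithelial genes, which summed over 11 genes to 19.1 CPM in Low and 116 in High, against at most 1.44 in the other 6 libraries. Without both libraries of Female2 the change of Hpgd was −1.65 (adjusted p 0.0011).

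**Figure D4:**
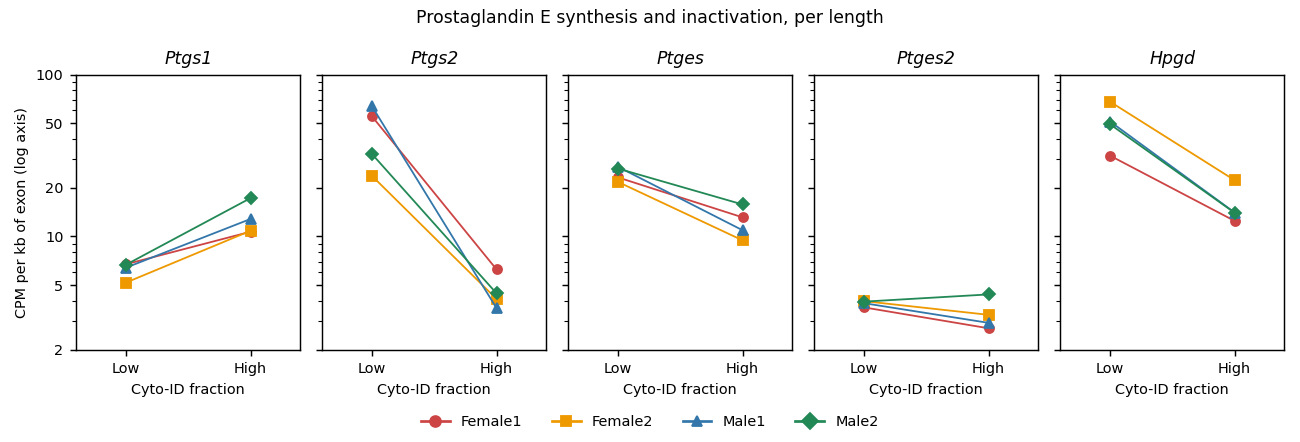
CPM per kilobase of exon (y, log axis shared by the panels) of the prostaglandin genes in the Low and High library of each animal (x). Ptgs2 lies above Ptgs1 in each Low library and below it in each High library, and Hpgd has the highest mean in Low.

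Ordered by level per length, the Low libraries had Hpgd at 50.0 ± 14.9 CPM per kilobase, Ptgs2 at 43.6 ± 18.8, Alox12b at 29.1 ± 19.8 and Ptges at 24.5 ± 2.5 (SD, n = 4 each), and these 4 did not differ beyond their spread between neighbours. Ptgs1 followed at 6.26 ± 0.73, Aloxe3 at 4.22 ± 1.33 and Ptges2 at 3.86 ± 0.15. In High, Alox12b at 525 and Aloxe3 at 37.7 came first. Alox12 at 18.6 ± 4.5, Hpgd at 15.7 ± 4.4, Ptgs1 at 12.9 ± 3.1 and Ptges at 12.3 ± 2.7 were neighbours within their spread, with Ptgs2 at 4.60 ± 1.15 and Ptges2 at 3.32 ± 0.74 below them. The per-length ratio of Ptges to Hpgd was 0.319 to 0.734 in Low and 0.425 to 1.13 in High. It was higher in High within each animal, by 0.64 ± 0.30 on the log2 scale (SD, n = 4).

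The rest of the pathway was read from 5 lists that together held 48 further genes. Of these 36 were tested, 22 were higher and 1 lower in High past the threshold, and their median log2 fold change was 1.46. Over all genes tested the shares were 23.4% higher and 25.3% lower. Of the 22 higher genes 15 were on the barrier list and 7 among the 21 tested genes of the other 4 lists, a share not far from that over all genes. All 15 genes of acylceramide synthesis, transport and oxidation were higher, with a median of 3.13 (3.125), beside −0.09 over all genes tested. Ephx3, an epoxide hydrolase that acts on fatty acid epoxides, rose by 3.77 (SE 0.40 and adjusted p 6.01e-05). Abca12, which loads lipids into lamellar granules, rose by 3.63 (SE 0.31), and Elovl4, which lengthens the longest fatty acids, by 3.55 (SE 0.39). Sdr9c7, which oxidises the epoxyalcohol left by Aloxe3, was chosen for its role once its values had been seen. It rose from 15.7 ± 6.5 to 160 (159.9) ± 20.9 CPM (SD, n = 4 each), by 3.35 (SE 0.33 and adjusted p 3.62e-05).

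Among the remaining lipoxygenases and the leukotriene genes, Alox5, which starts leukotriene synthesis, had 60 to 70 counts in Low and 15, 14, 15 and 2 in High (Male2 the last), a log2 fold change of −2.06 (SE 0.43 and adjusted p 0.00314). Without the High library of Male2 it was −1.71 (adjusted p 0.00107). Of the 9 leukocyte genes, 2 were lower past the threshold (H2-Ab1, the most abundant, and Cd207, a gene of Langerhans cells), 1 was higher (Cd52) and 6 did not pass. Cd207 and Cd52 are named after their values were seen. The part of leukocytes in the result was not tested. Alox8, next to Alox12b on the chromosome, had 4 to 21 counts in all 8 libraries (0.67, SE 0.57 and adjusted p 0.375). Lta4h, a hydrolase that makes leukotriene B, rose by 0.59 (SE 0.16 and adjusted p 0.0118), but with total counts as the scale its change was 0.00276 (adjusted p 0.985). Of that list 4 of 5 genes were tested, 1 higher and 1 lower, with a median of 0.15.

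The list of further prostanoid synthases gave 3 higher and 0 lower genes of 7 tested (9 listed, median 0.44), but 2 higher and 1 lower with total counts as the scale. Its most abundant gene, Ptges3, encodes a cytosolic prostaglandin E synthase and did not pass (80.8 ± 10.9 CPM in Low and 82.7 ± 20.3 in High, SD, n = 4 each, adjusted p 0.93). Prxl2b, which makes prostaglandin F from its precursor, rose from 18.4 ± 6.1 to 121 ± 8 CPM (SD, n = 4 each), by 2.71 (SE 0.23 and adjusted p 2.16e-05). Cbr1, a carbonyl reductase that acts on prostaglandin E, rose by 1.07 (SE 0.21 and adjusted p 0.00214), and by 0.48 under total-count scaling. Akr1b3, an aldose reductase with prostaglandin F synthase activity, rose by 0.79 (SE 0.15 and adjusted p 0.0021), but did not pass with total counts as the scale (0.22, adjusted p 0.237).

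Transport and inactivation gave 2 higher and 0 lower of 5 genes (median 0.13), but 1 higher and 3 lower with total counts as the scale. Ptgr1, the reductase that acts after the Hpgd enzyme and also inactivates leukotriene B, was at 207, 191, 172 and 264 CPM in Low (Female1, Female2, Male1, Male2) and 909, 1178, 1042 and 1345 in High. It rose by 2.42 (SE 0.20 and adjusted p 1.84e-05) where Hpgd fell. Slco2a1, the uptake carrier of prostaglandins, rose by 0.68 (SE 0.18 and adjusted p 0.0115). Without the Low library of Male1 its change was 0.60 (adjusted p 0.0548), and with total counts as the scale 0.11 (adjusted p 0.636). In the animals numbered 2 alone it was 0.50 (adjusted p 0.0954), so it passed in none of these 3.

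Of 14 eicosanoid receptors 5 were tested, and 1 was higher and 0 lower (median −0.09), or 1 higher and 3 lower with total counts as the scale. Ptger3, a receptor for prostaglandin E that lowers cyclic AMP, had 24, 48, 2 and 50 counts in the Low libraries of Female1, Female2, Male1 and Male2, and 305, 481, 367 and 325 in High. Male1 was the lowest Low library, as for Alox12b. The log2 fold change was 4.12 (SE 0.57 and adjusted p 0.000274), from 0.908 ± 0.652 to 15.9 ± 3.9 CPM (SD, n = 4 each), and 4.76 without the Low library of Male2 (adjusted p 0.000581). Ptger4, a receptor for the same ligand that raises cyclic AMP, was at 95.6, 27.0, 88.0 and 61.1 CPM in Low and 34.0, 33.3, 33.8 and 48.1 in High, which overlap. Its change was −0.87 (SE 0.33 and adjusted p 0.0541). Without the Low library of Female2, the only animal with more Ptger4 in High, it was −1.12 (adjusted p 0.00165), and over all 21 alternatives the adjusted p ran from 9.1e-06 to 0.835. In the animals numbered 1 alone the change was −1.39, and in those numbered 2 it was −0.11. In Low, Ptger4 and Ptgs2 shared their order of animals at the lowest place (Female2) and the next (Male2), but not above these. Ptger4 was highest in Female1 and Ptgs2 in Male1. These orders rest on 4 libraries and were not tested. Ptger1 and Ptger2 had at most 15 counts in any library and were not tested.

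**Figure D5:**
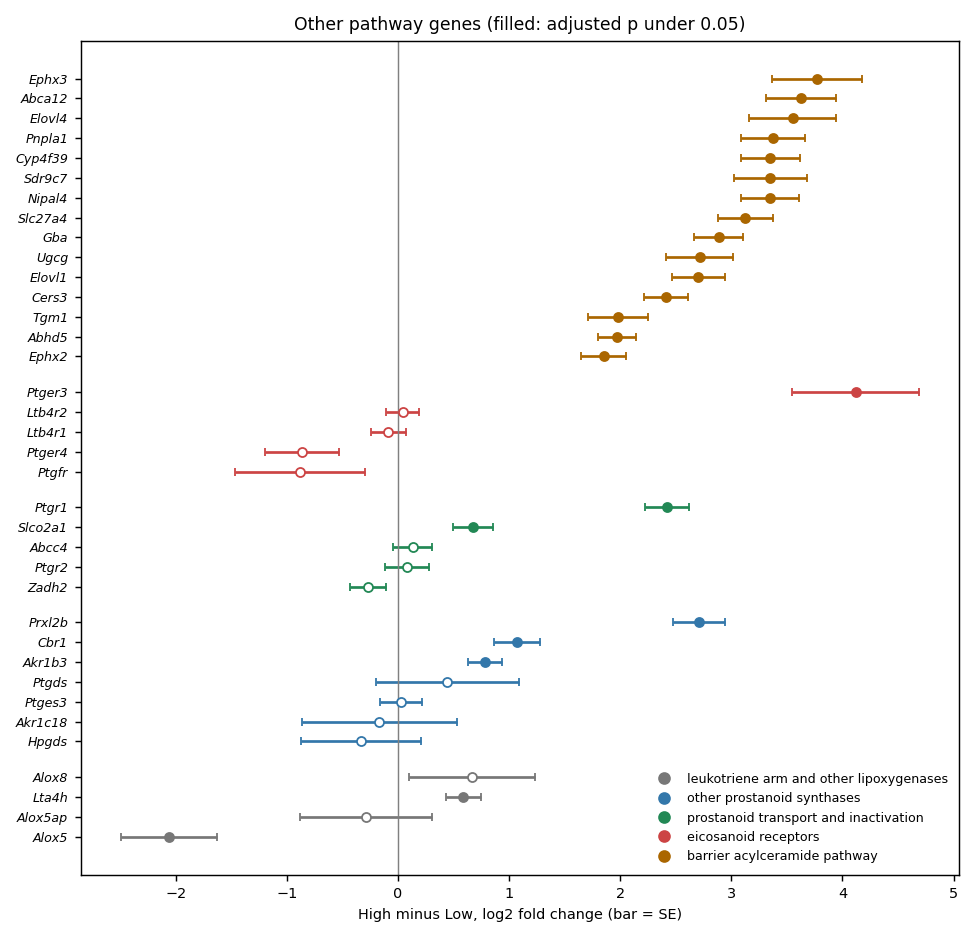
Log2 fold change from Low to High (x, bars are SE) of the 36 tested genes of the 5 pathway lists (y), filled where the adjusted p was under 0.05. All 15 barrier genes lie right of 0, and Ptger3 stands apart from the other 4 receptors tested.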

How the data were processed

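The authors deposited raw counts per gene symbol for 8 libraries (4 Low, 4 High); the unit was read from the values. STAR 2.7.3, DESeq2 and GRCm38 are named, with no role, in the submitters' processing notes. The counting tool, annotation and use of strand are not given in the sources used here, so reads of near-identical or overlapping genes are uncertain. Floors cover counting error only.

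All genes were fitted in R 4.3.3 with edgeR 4.0.16 (filterByExpr, TMM, glmQLFit and glmQLFTest, sex as covariate, two-sided). The SE was derived from the fold change and its F statistic, and per-animal log2 CPM used a prior count of 2. Lengths are unions of GENCODE M21 exons. RefSeq promoter windows were found for 8 of the 10 members. Tested on simulated counts, the fit called 81.5% of 200 genes changed by 1.5 on the log2 scale, and 13 others, with 16978 genes fitted. The simulated counts held no differences between animals and a far smaller share of changed genes than the data. They therefore did not check the scaling or the pairing.

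Each animal's cells were sorted into both fractions, so libraries pair by animal. Deviations from fraction means correlated across genes, which are not independent replicates, at 0.433, 0.316, −0.0161 and 0.277 within Female1, Female2, Male1 and Male2, and at −0.372 to 0.35 between animals.

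The members and lists were chosen with earlier results of these data known. Named were all members, up to 3 called genes per pathway list and direction with the largest change, and Alox5, Alox8 and Ptger1 to Ptger4. Alternatives were RLE factors, total counts, no filter, at least 10 counts in every library, DESeq2 1.42.0, limma-voom (limma 3.58.1), no covariate, the animal as block, and left-out libraries or animals. The label number, as covariate or with its animals alone, was added after the data were seen.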

Additional observations from a re-analysis of the deposited data

Results flagged for a closer look

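Dixon's ratio, the gap of an end library divided by the range, was computed for 74 sets of 4 libraries. Chance alone passes its limit in about 1 set in 20. Hpgd in High stood apart in Female2, at 37.4 CPM beside 20.99, 23.6 and 23.6. Alox5 in High was at 0.103 CPM in Male2 beside 0.572, 0.579 and 0.610. Ptger4 in High was at 48.1 CPM in Male2 beside 33.3, 33.8 and 34.0, where its counts were 935 beside 764 to 886 and the scaling factor of that library was the lowest of all, 0.679. The summed platelet and megakaryocyte genes in High were at 34.6 CPM in Male2 beside 24.4, 25.0 (24.95) and 25.9. The summed gastric genes stood apart in Female2 in both fractions, at 116 CPM in High beside 0.801, 0.849 and 1.44, and at 19.1 CPM in Low beside 0.392, 0.466 and 0.772.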

How the results depend on the processing

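The 7 members past the threshold kept their direction and call in all 21 alternatives. The block by animal (replicate block) gave 4 members higher and 3 lower, 22 pathway genes higher and 1 lower, and changed no call of a named gene. Scaling by total counts moved the median of all genes by −0.545 on the log2 scale and gave 2194 genes higher and 8514 lower, so that 20.5% of the calls were higher in place of 48.0%. It also gave 8 pathway genes lower in place of 1. That number was 2 without a filter, with DESeq2, with no covariate, without both libraries of Female2 and in the animals numbered 1 alone, and 1 to 2 when each library was left out. The change of Alox12e turned to 0.17 without both libraries of Male2 and to 0.49 in the animals numbered 1 (−1.95 in those numbered 2), and ran from −1.21 to 0.15 when each library was left out. That of Alox15 turned to −0.17 under total counts and to −0.62 in the animals numbered 2 (1.05 in those numbered 1), and ran from −0.00695 to 0.60 over left-out libraries. With 10 counts or more in every library Alox12e, Alox15, Alox5, Alox8 and Ptger3 gave no value, nor did Alox8 in the animals numbered 2 alone. Of 14 other named genes tested, 10 kept their call in the alternatives that gave them a value. Counts per library were 0 to 100 for Alox12e, Alox15, Alox5 and Alox8, which limits their precision.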
